A study of Mus musculus with 5 samples.

Results

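The genes described here are 33 genes of the citric acid cycle and of pyruvate oxidation, taken by symbol from a deposited table of 12446 genes. All 33 were listed, each under a single Ensembl identifier, and all 33 passed the minimum for testing, as 10915 genes did in all. The table came from bulk RNA sequencing of cardiomyocytes isolated and purified from hearts of C57BL/6 mice, whose age is given as 12 to 14 weeks. OSKM-CMs were sampled as 3 libraries, numbered 1 to 3, after an injection into the thoracic cavity of male mice at 8 weeks with a mixture of AAV vectors for His6-tagged Oct4, Flag-tagged Sox2, HA-tagged Klf4 and V5-tagged Myc. Control-CMs were sampled as 2 libraries, numbered 3 and 5, after an injection, also at 8 weeks, of a single AAV vector for BFP (blue fluorescent protein). The titer of each factor vector was 2.5 and that of the BFP vector 10, both in e10 virus genomes per gram of body weight. Every vector carried the promoter of cardiac troponin T (cTnT), which restricts expression largely to cardiomyocytes, so controls had also received a virus. Nothing in the labels ties a library to its own mouse, and p-values therefore speak of the spread among these libraries, which may be technical.

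In the citric acid cycle, acetyl groups from pyruvate and fatty acids are oxidised in the mitochondrial matrix, and the electrons are passed to the respiratory chain as NADH and reduced flavin. Pyruvate enters mitochondria through a carrier made of a pair of small proteins and is converted to acetyl-CoA by the pyruvate dehydrogenase complex, which kinases switch off and phosphatases switch on. The adult heart depends on this cycle for most of its ATP, and transcripts of its enzymes are abundant in cardiomyocytes.

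Reads over the listed genes totalled 2691796 to 2780751 in the OSKM-CMs libraries and 3519628 and 3861805 in the Control-CMs libraries. Transcripts of all 4 delivered factors were higher in OSKM-CMs, with Pou5f1 (Oct4) at 262 to 344 reads in OSKM-CMs and 0 reads in both controls. Markers of cardiomyocytes summed to 12216 to 13308 scaled RPKM in OSKM-CMs and to 22142 and 25093 in Control-CMs, and 7 of 8 fell. Calls of markers follow the rule given below, by which 14.3% of all tested genes fell and 15.9% rose. Of the markers in the table for 5 cell types, none was at 0 in both controls. Fibroblast markers summed to 89.9 to 204 scaled RPKM in OSKM-CMs and to 35.3 and 68.7 in Control-CMs, with 4 of 8 tested members higher and 0 lower. The higher ones were Col1a1, Col1a2, Col3a1 and Postn, whereas Pdgfra, Dcn, Lum and Mfap5 overlapped between the groups. Endothelial markers summed to 45.0 to 92.0 in OSKM-CMs and to 106 and 138 in Control-CMs, with 2 of 10 lower. Mural cell markers summed to 76.7 to 111 in OSKM-CMs and to 149 and 168 in Control-CMs (1 of 7 lower and 2 higher). The lower one was Abcc9, at 13.8, 16.6 and 12.1 in OSKM-CMs, against 81.9 and 79.6 in Control-CMs. Its difference was about as large as the gap in the sum, and Cspg4 and Pdgfrb were higher. Macrophage and leukocyte markers summed to 5.30 to 28.97 in OSKM-CMs and to 7.14 and 26.8 in Control-CMs (0 of 5 changed). The part of other cell types in the results below was not tested, and in bulk samples fewer cells of a type cannot be told apart from less RNA per cell.

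Transcripts of the citric acid cycle and of pyruvate oxidation were lower in OSKM-CMs at nearly every step. Of the 33 genes, 26 fell, 0 rose and 7 did not pass (limma, Benjamini-Hochberg adjusted p below 0.05 over all tested genes). Over all genes tested, 14.3% fell and 15.9% rose by the same rule (30.2% in either direction). The median log2 fold change was -0.59 for the 33 genes and 0.02 for all genes tested. Individual changes ran from -1.39 for Pdp2 to 0.28 for Dlat. Most changes were moderate, and 4 genes (Pdp2, Idh3b, Brp44 and Sucla2) fell at least 2-fold, as 4.61% of all tested genes did. Levels are given as RPKM (reads per kilobase of gene, relative to library size), scaled between libraries by the trimmed mean of M values (TMM). Log2 fold changes were fitted on log2 of scaled RPKM plus 1.

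The 3 OSKM-CMs libraries lay below both controls for 30 of the 33 genes, as they did for 27.8% of all tested genes. They lay above both controls for Dlat and Aco1 (30.0% of all tested genes), and the groups overlapped for Idh3a alone. Summed over the 33 genes, scaled RPKM was 5311, 5841 and 5206 in the OSKM-CMs libraries in order of their number, against 8193 and 8386 in the Control-CMs libraries. The groups did not overlap in this sum, and OSKM-CMs replicate 2 was the highest of its group. That library held the highest OSKM-CMs value for 27 of the 33 genes, and it also had the lowest fibroblast, endothelial and mural marker sums of the 3.

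**Figure D1:**
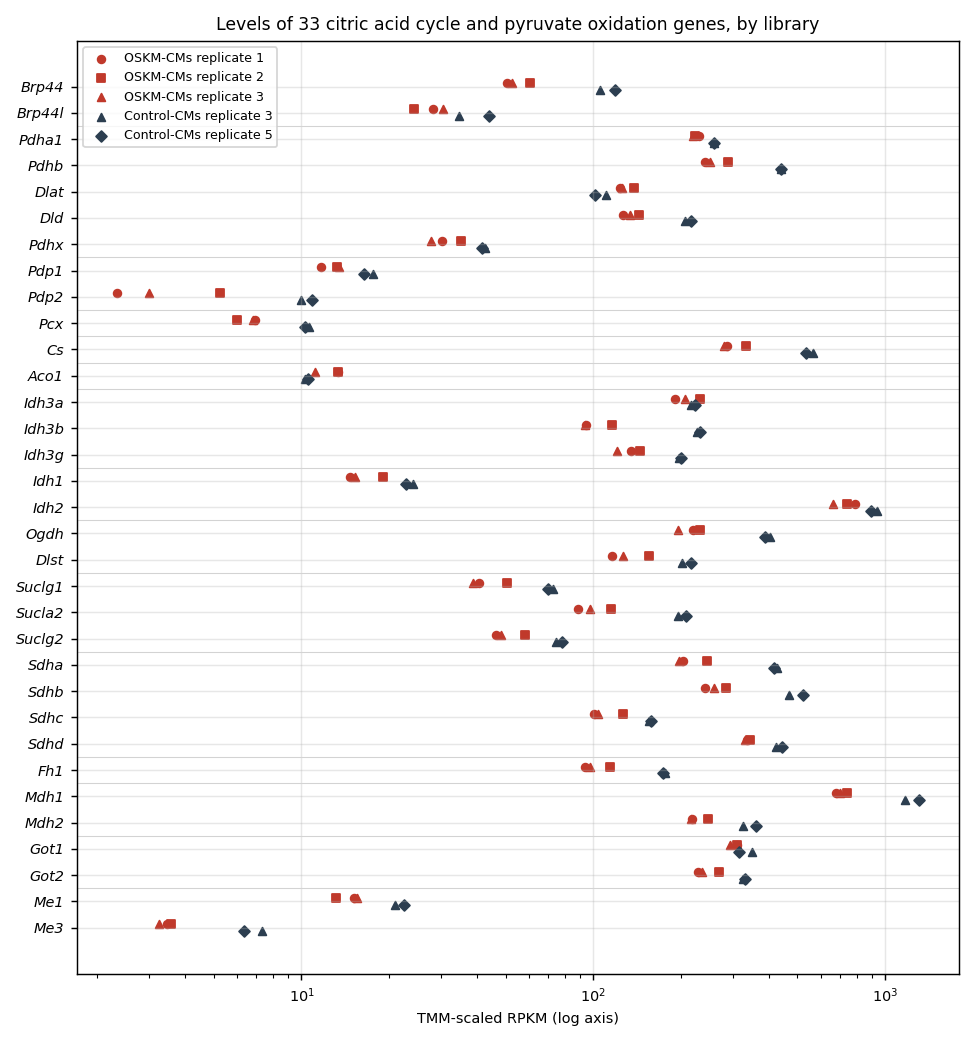
Scaled RPKM (log axis) of each of the 33 genes, from pyruvate entry at the top to the malic enzymes at the bottom. Red symbols are the 3 OSKM-CMs libraries (circle, replicate 1; square, 2; triangle, 3) and dark symbols the 2 Control-CMs libraries (triangle, replicate 3; diamond, 5). The OSKM-CMs symbols lie to the left of both controls for 30 genes, to the right for Dlat and Aco1, and overlap for Idh3a.

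The direction of single genes depended on how libraries were scaled. Transcripts encoded by mitochondrial DNA took 9.76% to 11.1% of the counted reads in the OSKM-CMs libraries, against 21.2% and 24.7% in the controls, and that difference enters any scaling to totals. With library totals alone, the median of all tested genes moved to 0.36 and that of the 33 genes to -0.18. In that setting 10 of the 33 fell and 3 rose (Dlat, Aco1 and Idh3a), against 5.96% lower and 36.5% higher among all tested genes. With totals that left out mitochondrially encoded genes, 17 fell and 2 rose (Dlat and Aco1), with medians of -0.39 for the 33 and 0.19 for all genes. The median of the 33 genes minus that of all genes was -0.61 with TMM, -0.58 with the second scaling and -0.54 with library totals alone. Ratios between genes within a library are free of this choice and are given below for genes of the same complex.

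**Figure D2:**
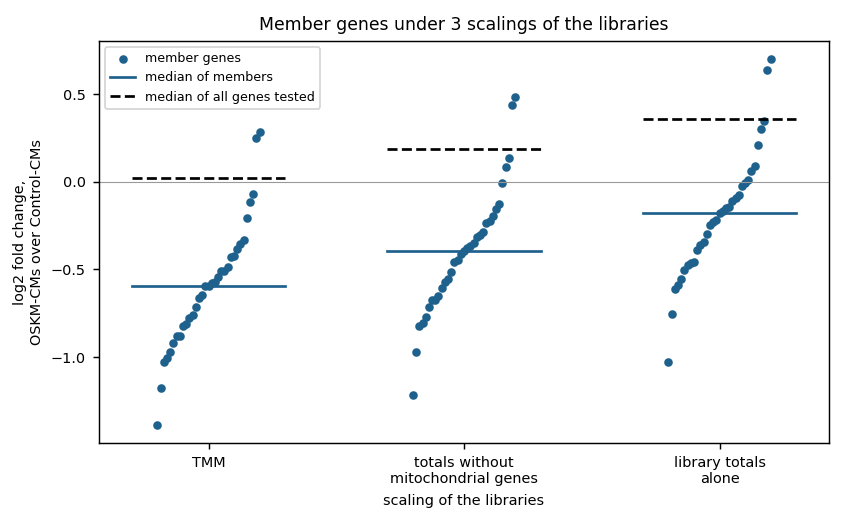
Log2 fold change of each of the 33 genes (points, sorted) under 3 scalings of the libraries. Solid lines are the medians of the 33 genes (-0.59, -0.39 and -0.18) and dashed lines those of all genes tested (0.02, 0.19 and 0.36); both move up together from left to right.

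For 10 genes the call held under every scaling, test and left-out library tried. Brp44, Pdhb, Pdp2, Cs, Idh3b, Ogdh, Sucla2, Sdha, Sdhb and Mdh1 were called lower in all 15 settings, the 14 alternatives included. In the authors' deposited table, 26 of the 33 genes were lower and 0 higher at an FDR below 0.05 (15.4% and 16.4% of all listed genes), and all 26 were the ones called here.

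**Figure D3:**
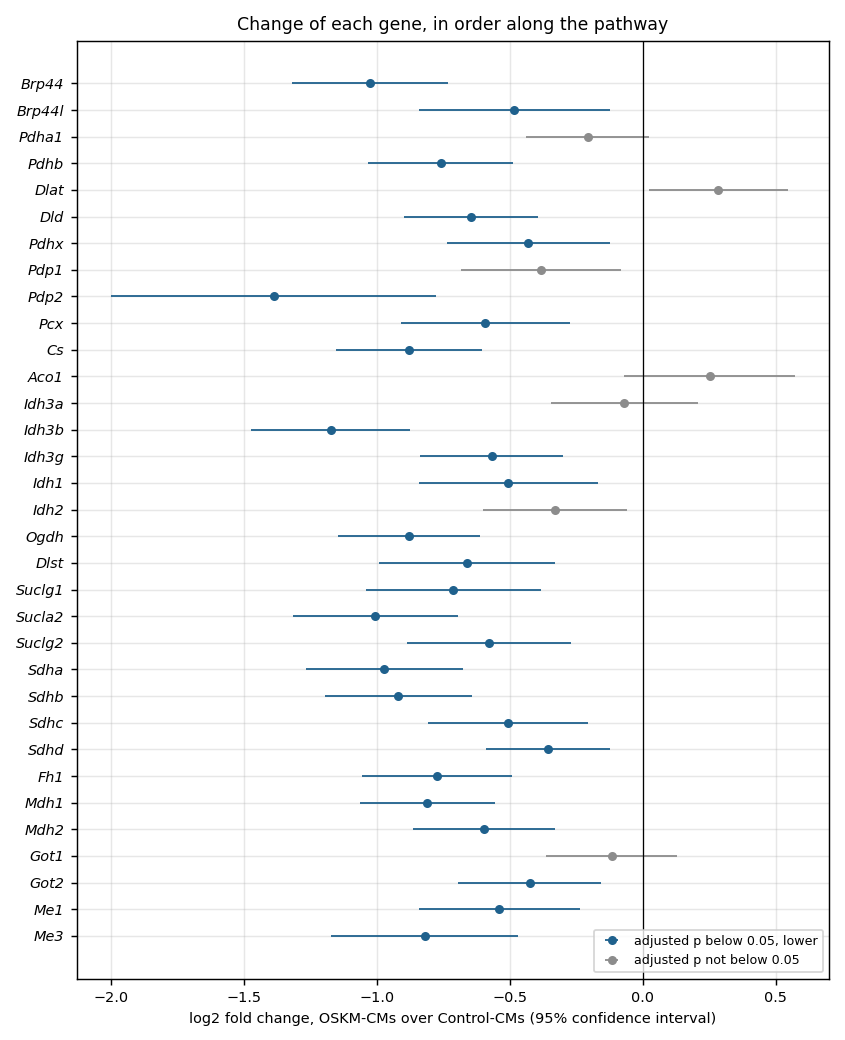
Log2 fold change of OSKM-CMs over Control-CMs for each gene, in pathway order, with its 95% confidence interval from limma. Blue genes passed at adjusted p below 0.05 and all of these were lower; grey genes did not pass. With library totals alone Pdha1, Pdp1, Idh3a, Idh2, Sdhd and Got1 also have values above 0, besides Dlat and Aco1.

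The mitochondrial pyruvate carrier was lower in both subunits, unequally. Brp44 (ENSMUSG00000026568.5; Mpc2 in RefSeq) had 50.5, 60.4 and 52.7 scaled RPKM in OSKM-CMs, against 106 and 118 in Control-CMs. All OSKM-CMs libraries lay far below both controls, at 48.7% of the control mean (log2 fold change -1.03, SE 0.13, limma adjusted p = 0.00124). Brp44l (ENSMUSG00000023861.10; Mpc1 in RefSeq), the other subunit, had 28.2, 24.4 and 30.6 in OSKM-CMs, against 34.5 and 44.1 in Control-CMs. Its fall was smaller and close to the threshold (log2 fold change -0.48, SE 0.15, limma adjusted p = 0.0494), and it rested on 158 to 282 reads a library. The ratio of Brp44 to Brp44l was 2.00 ± 0.42 (SD, n = 3) in OSKM-CMs and 2.87 ± 0.26 (SD, n = 2) in Control-CMs, without overlap. For such ratios 3 against 2 libraries cannot reach 0.05 in an exact permutation test, whose smallest 2-sided p is 0.2.

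The subunits of the pyruvate dehydrogenase complex did not move together. Pdhb (ENSMUSG00000021748.8), the beta subunit of the decarboxylase, had 241, 289 and 251 scaled RPKM in OSKM-CMs, against 440 and 441 in Control-CMs (log2 fold change -0.76, SE 0.12, limma adjusted p = 0.00296). Pdha1 (ENSMUSG00000031299.9), the alpha subunit with which it assembles and the target of the regulatory kinases, had 229, 224 and 219 in OSKM-CMs, against 259 and 258 in Control-CMs. That difference was small and did not pass (log2 fold change -0.21, 95% interval -0.44 to 0.02, limma adjusted p = 0.155), and its sign turned with library totals alone (0.21, adjusted p = 0.132). Dlat (ENSMUSG00000000168.3), the acetyltransferase core, went the other way, with 124, 138 and 125 in OSKM-CMs, against 110 and 101 in Control-CMs. Its groups did not overlap, but the change did not pass with TMM (log2 fold change 0.28, SE 0.11, limma adjusted p = 0.0932). Dld (ENSMUSG00000020664.8), the lipoamide dehydrogenase shared with the 2-oxoglutarate complex, fell to 134 ± 8.72 (SD, n = 3) in OSKM-CMs, against 211 ± 6.74 (SD, n = 2) in Control-CMs. Pdhx, which anchors that enzyme to the core, fell by 0.43 on the log2 scale, near the threshold (limma adjusted p = 0.0437).

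Within a library these shifts were plain. Dlat stood at 0.512, 0.477 and 0.498 of Pdhb in OSKM-CMs, against 0.250 and 0.229 in Control-CMs, a log2 difference of 1.05. Pdhb over Pdha1 was 1.05, 1.29 and 1.14 in OSKM-CMs, against 1.70 and 1.71 in Control-CMs. Both ratios separated the groups, by more than the spread within either. These complex ratios, and those of Idh3 and Sdh subunits below, were chosen after the values were seen.

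Of the phosphatases that reactivate the complex, Pdp2 fell and Pdp1 did not pass. Pdp2 (ENSMUSG00000048371.7) had 2.33, 5.25 and 3.00 scaled RPKM in OSKM-CMs, against 9.97 and 10.9 in Control-CMs, on 25 to 57 reads a library in OSKM-CMs and 108 and 117 in Control-CMs. It stood at 33.8% of the control mean, the lowest of the 33 genes, with OSKM-CMs replicate 2 above the other OSKM-CMs libraries and still below both controls (log2 fold change -1.39, SE 0.26, limma adjusted p = 0.00721). Pdp1 (ENSMUSG00000049225.8), the calcium-stimulated form, had 11.7, 13.2 and 13.4 in OSKM-CMs, against 17.6 and 16.4 in Control-CMs. It did not pass (log2 fold change -0.38, SE 0.13, limma adjusted p = 0.0585), although the groups did not overlap and limma voom on recovered reads called it. Pcx (ENSMUSG00000024892.8), pyruvate carboxylase, which refills the cycle with oxaloacetate, was a minor transcript and fell to 6.61 ± 0.50 (SD, n = 3) in OSKM-CMs, against 10.4 ± 0.20 (SD, n = 2) in Control-CMs.

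At the entry of the cycle, Cs (ENSMUSG00000005683.7), citrate synthase, had 287, 333 and 280 scaled RPKM in OSKM-CMs, against 566 and 536 in Control-CMs. It stood at 54.4% of the control mean (log2 fold change -0.88, SE 0.12, limma adjusted p = 0.00173). Aco1 (ENSMUSG00000028405.8), the cytosolic aconitase that doubles as iron regulatory protein, was the other gene with all OSKM-CMs libraries above both controls, at 13.4, 13.4 and 11.2 in OSKM-CMs, against 10.3 and 10.5 in Control-CMs. Its change did not pass with TMM (log2 fold change 0.25, SE 0.14, limma adjusted p = 0.21).

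The NAD-dependent isocitrate dehydrogenase had subunits that differed widely in their change. Its catalytic subunit Idh3a (ENSMUSG00000032279.9) had 190, 232 and 206 scaled RPKM in OSKM-CMs, against 215 and 222 in Control-CMs. The groups overlapped, and no change was detected with TMM (log2 fold change -0.07, 95% interval -0.35 to 0.21, limma adjusted p = 0.694). The regulatory subunit Idh3b (ENSMUSG00000027406.4) had 94.4, 116 and 93.8 in OSKM-CMs, against 227 and 231 in Control-CMs, on 981 to 2430 reads a library. It stood at 44.3% of the control mean (log2 fold change -1.17, SE 0.13), with the smallest adjusted p of the 33 genes (limma, 0.000757). Idh3g (ENSMUSG00000002010.10), the other regulatory subunit, lay between them, at 133 ± 11.7 (SD, n = 3) in OSKM-CMs and 198 ± 2.67 (SD, n = 2) in Control-CMs (log2 fold change -0.57, limma adjusted p = 0.00919).

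Idh3b over Idh3a was 0.497, 0.501 and 0.455 in OSKM-CMs, against 1.05 and 1.04 in Control-CMs. Transcripts of these subunits were thus near equal per length in both controls, and in each OSKM-CMs library Idh3b was far below Idh3a. Idh3g over Idh3a was 0.710, 0.623 and 0.586 in OSKM-CMs, against 0.910 and 0.897 in Control-CMs, again without overlap. Both Idh3 ratios were chosen after the values were seen and restate the unequal changes above.

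The NADP-dependent isocitrate dehydrogenases differed in level more than in change. Idh2 (ENSMUSG00000030541.10), the mitochondrial form, had 788, 740 and 661 scaled RPKM in OSKM-CMs, against 933 and 896 in Control-CMs. It ranked first of the 33 genes in OSKM-CMs, where its 730 ± 64.2 and the 705 ± 29.6 of Mdh1 did not differ beyond their spread, and second after Mdh1 in Control-CMs. Its change did not pass with TMM (log2 fold change -0.33, SE 0.12, limma adjusted p = 0.0681), was called with limma voom and turned sign with library totals alone (0.090, adjusted p = 0.545). Idh1 (ENSMUSG00000025950.9), the cytosolic form, was far less abundant, at 16.3 ± 2.31 (SD, n = 3) in OSKM-CMs and 23.5 ± 0.93 (SD, n = 2) in Control-CMs, and fell (log2 fold change -0.51, limma adjusted p = 0.0339). The ratio of Idh2 to Idh1 overlapped between the groups.

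Both specific subunits of the 2-oxoglutarate dehydrogenase complex fell. Ogdh (ENSMUSG00000020456.10), the decarboxylase, had 220, 231 and 195 scaled RPKM in OSKM-CMs, against 403 and 388 in Control-CMs (log2 fold change -0.88, SE 0.12, limma adjusted p = 0.00156). The controls lay close together, and so did the OSKM-CMs libraries. Dlst (ENSMUSG00000004789.8), the succinyltransferase core, averaged 132 ± 20.0 (SD, n = 3) in OSKM-CMs and 209 ± 10.6 (SD, n = 2) in Control-CMs (log2 fold change -0.66, SE 0.14, limma adjusted p = 0.0115). The core subunit of this complex thus fell, where Dlat, its counterpart in the pyruvate complex, did not.

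All 3 subunits of succinyl-CoA ligase fell, the ATP-forming one by the widest margin. Sucla2 (ENSMUSG00000022110.7), the beta subunit that makes the enzyme ATP-forming, had 88.7, 115 and 97.1 scaled RPKM in OSKM-CMs, against 195 and 207 in Control-CMs (log2 fold change -1.01, SE 0.13, limma adjusted p = 0.00166). Suclg2 (ENSMUSG00000061838.4), the beta subunit of the GTP-forming enzyme, had 46.3, 58.1 and 48.3 in OSKM-CMs, against 74.3 and 78.2 in Control-CMs (log2 fold change -0.58, SE 0.13, limma adjusted p = 0.0148). Suclg1, the alpha subunit common to both enzymes, changed by -0.71 (SE 0.14, limma adjusted p = 0.00843). Sucla2 over Suclg2 was 1.92, 1.97 and 2.01 in OSKM-CMs, against 2.62 and 2.65 in Control-CMs. That ratio was tight within each group and did not overlap between them.

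**Figure D4:**
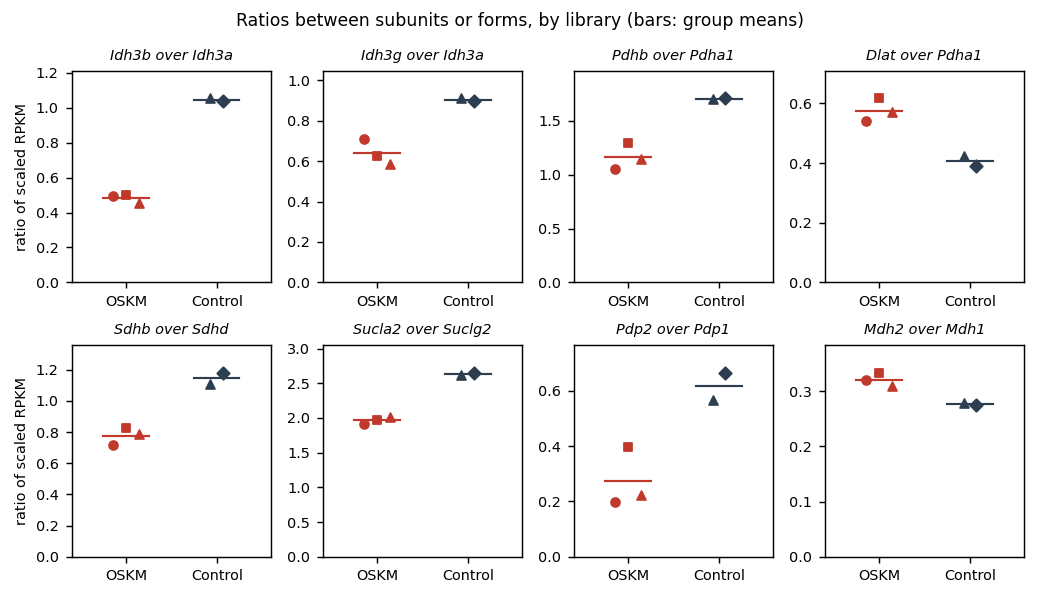
Ratios of scaled RPKM between subunits or forms, 1 point a library (circle, OSKM-CMs replicate 1; square, 2; red triangle, 3; dark triangle, Control-CMs replicate 3; diamond, 5), with bars at group means and axes from 0. Idh3b over Idh3a is 0.455 to 0.501 in OSKM-CMs and 1.04 and 1.05 in Control-CMs. No ratio shown overlaps between the groups, but the ratios shown are a selection. Those within Idh3, pyruvate dehydrogenase and succinate dehydrogenase were chosen after their values were seen. Idh2 over Idh1, which is not shown, overlaps. The share of other gene pairs without overlap was not computed.

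Succinate dehydrogenase, which is also complex II of the respiratory chain, was lower in all 4 subunits with TMM scaling. The catalytic pair fell most. Sdha (ENSMUSG00000021577.7), the flavoprotein, had 202, 245 and 196 scaled RPKM in OSKM-CMs, against 424 and 414 in Control-CMs (log2 fold change -0.97, SE 0.13, limma adjusted p = 0.00156). Sdhb (ENSMUSG00000009863.8), the iron-sulfur subunit, had 241, 284 and 259 in OSKM-CMs, against 467 and 522 in Control-CMs (log2 fold change -0.92, SE 0.12, limma adjusted p = 0.00147). Both were at 51.1% and 52.8% of their control means, and their groups were far apart. The membrane anchors fell less. Sdhc (ENSMUSG00000058076.6) had 101, 126 and 104 in OSKM-CMs, against 154 and 158 in Control-CMs (log2 fold change -0.51, SE 0.13, limma adjusted p = 0.0225). Sdhd (ENSMUSG00000000171.4) had 337, 345 and 330 in OSKM-CMs, against 422 and 442 in Control-CMs (log2 fold change -0.36, SE 0.10, limma adjusted p = 0.0318), and with library totals alone its value was 0.062 (adjusted p = 0.632). Sdhb over Sdhd was 0.715, 0.823 and 0.784 in OSKM-CMs, against 1.11 and 1.18 in Control-CMs, so the more abundant of the pair differed between the groups. This ratio was also chosen after the values were seen.

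Promoters of Sdha, Sdhb and Sdhd are shown because the subunits of succinate dehydrogenase, which the cell needs together, fell by unequal amounts. They come from RefSeq (GRCm38.p6, 250 bases before to 50 bases after the start site), whereas the reads had been mapped to mm9. Of the 33 genes, 30 matched an entry. Pdp1, Idh3a and Sdhc did not, so the promoter of Sdhc is not shown. Capitals mark matches to the NRF1 (nuclear respiratory factor) motif (GCGCA, any base, then GCGC), to TNAAGGTCA (estrogen-related receptors) or to CACGTG (E-box), searched on both strands.
Sdha, chr13:74350191-74350490, minus strand: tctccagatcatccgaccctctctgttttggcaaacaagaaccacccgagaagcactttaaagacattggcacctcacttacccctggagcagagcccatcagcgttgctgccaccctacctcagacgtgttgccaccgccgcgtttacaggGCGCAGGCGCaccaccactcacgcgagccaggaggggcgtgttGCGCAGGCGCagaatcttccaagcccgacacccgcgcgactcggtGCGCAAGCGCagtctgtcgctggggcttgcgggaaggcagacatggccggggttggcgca
Sdhb, chr4:140961021-140961320, plus strand: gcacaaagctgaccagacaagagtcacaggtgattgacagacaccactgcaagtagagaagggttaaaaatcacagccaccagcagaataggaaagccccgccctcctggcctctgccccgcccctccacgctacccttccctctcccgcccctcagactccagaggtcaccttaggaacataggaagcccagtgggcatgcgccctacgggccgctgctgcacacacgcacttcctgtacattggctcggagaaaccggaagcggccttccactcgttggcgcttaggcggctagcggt
Sdhd, chr9:50603800-50604099, minus strand: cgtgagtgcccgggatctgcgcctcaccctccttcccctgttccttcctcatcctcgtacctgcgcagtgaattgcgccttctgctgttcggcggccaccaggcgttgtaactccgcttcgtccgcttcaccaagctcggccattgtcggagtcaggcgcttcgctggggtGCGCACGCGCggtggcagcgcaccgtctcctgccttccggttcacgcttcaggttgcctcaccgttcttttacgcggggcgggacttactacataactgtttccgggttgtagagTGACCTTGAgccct
The Sdha window held 3 NRF1 matches, beginning 98, 55 and 10 bases before the start site. Sdhd held 1, beginning 79 bases before it, and also a match to TNAAGGTCA on the opposite strand, 36 bases into the transcript. Sdhb held none of the 3 motifs. Whether the motifs bear on the changes was not tested. Among the matched genes, the NRF1 motif was found in 4 of 30 (13.3%; Dld, Sucla2, Sdha and Sdhd) and in 5.19% of 27025 genes in the promoter table. CACGTG was found in 3 (10.0%; Pdp2, Pcx and Ogdh) and in 8.09% of all, and TNAAGGTCA in 1 (3.33%; Sdhd) and in 1.43% of all. Genes with a match were found among those that fell by much and by little, and a match describes letters only.

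Fh1 (ENSMUSG00000026526.7), fumarase, had 93.9, 114 and 97.3 scaled RPKM in OSKM-CMs, against 176 and 172 in Control-CMs (log2 fold change -0.78, SE 0.12, limma adjusted p = 0.00316). Mdh2 (ENSMUSG00000019179.6), the malate dehydrogenase that closes the cycle, had 217, 246 and 217 in OSKM-CMs, against 326 and 360 in Control-CMs (log2 fold change -0.60, SE 0.11, limma adjusted p = 0.00736). The last steps of the cycle were thus lower in every OSKM-CMs library than in either control.

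Malate dehydrogenase and aspartate aminotransferase also exist as cytosolic forms, which with the mitochondrial ones carry NADH electrons into mitochondria in the malate-aspartate shuttle. Mdh1 (ENSMUSG00000020321.9), the cytosolic malate dehydrogenase and the most abundant of the 33 transcripts in controls, had 679, 737 and 699 scaled RPKM in OSKM-CMs, against 1169 and 1307 in Control-CMs (log2 fold change -0.81, SE 0.11, limma adjusted p = 0.00176). It fell somewhat more than Mdh2: Mdh2 over Mdh1 was 0.320, 0.334 and 0.310 in OSKM-CMs, against 0.279 and 0.276 in Control-CMs. The aminotransferases leaned the opposite way. Got1 (ENSMUSG00000025190.7), the cytosolic form, had 310, 311 and 294 in OSKM-CMs, against 348 and 315 in Control-CMs, with no change detected (log2 fold change -0.12, 95% interval -0.36 to 0.13, limma adjusted p = 0.438) and a value of 0.30 with library totals alone. Got2 (ENSMUSG00000031672.7), the mitochondrial form, fell to 244 ± 22.4 (SD, n = 3) in OSKM-CMs, against 328 ± 4.84 (SD, n = 2) in Control-CMs (log2 fold change -0.43, limma adjusted p = 0.0278). Got2 over Got1 was 0.736 to 0.867 in OSKM-CMs, against 0.932 and 1.05 in Control-CMs. Of the 28 mitochondrial genes 23 fell, and of the 5 cytosolic ones 3 fell.

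Me1 and Me3, the NADP-dependent malic enzymes, which turn malate into pyruvate, were low in both groups and fell in OSKM-CMs. Me1 (ENSMUSG00000032418.8), the cytosolic NADP form, had 15.1, 13.1 and 15.5 scaled RPKM in OSKM-CMs, against 20.8 and 22.4 in Control-CMs (log2 fold change -0.54, SE 0.13, limma adjusted p = 0.018). Me3 (ENSMUSG00000030621.10), the mitochondrial NADP form, had 3.45, 3.58 and 3.26 in OSKM-CMs, against 7.33 and 6.33 in Control-CMs. At 50.2% of the control mean, its log2 fold change of -0.82 (limma adjusted p = 0.00616) is understated by the added 1, and the authors' deposited table gave -0.99.

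Several of the smaller falls lost the call in some of the fits that left out 1 library, though none did in all of them. Without Control-CMs replicate 5, 16 of the 33 genes were called, and the calls lost were Brp44l, Pdhx, Pcx, Idh1, Dlst, Suclg2, Sdhc, Sdhd, Got2 and Me1 (limma adjusted p 0.0555 to 0.26). Without Control-CMs replicate 3, the same genes except Brp44l and Dlst lost the call (adjusted p 0.0522 to 0.15). Without OSKM-CMs replicate 1 or 3, Brp44l, Pdhx, Idh1, Suclg2, Sdhc, Sdhd and Got2 did (0.0541 to 0.124), and without OSKM-CMs replicate 2 only Brp44l did (0.0987). Where a call was lost, the log2 fold change was still below 0, between -0.62 and -0.31. The other 16 called genes passed in each fit that left out 1 library.

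Among 34 further genes of the pathway (isozymes, kinases, lipoylation and assembly factors, and carriers), 32 were listed and 31 tested. Of these, 10 fell, 6 rose and 15 did not pass (median log2 fold change -0.37), where 14.3% of all tested genes fell and 15.9% rose. The 4 largest changes were those of Ldhb, Me2, Ldha and Pdk1. Ldhb, which encodes the heart-type subunit of lactate dehydrogenase, fell to 264 ± 44.5 (SD, n = 3) in OSKM-CMs, against 708 ± 4.06 (SD, n = 2) in Control-CMs, while Ldha, the muscle-type subunit, rose to 448 ± 33.3 in OSKM-CMs, against 188 ± 13.5 in Control-CMs (log2 fold changes -1.43 and 1.25). Me2, the mitochondrial NAD malic enzyme, had 10.8, 11.3 and 12.0 in OSKM-CMs, against 3.43 and 4.52 in Control-CMs (log2 fold change 1.32, SE 0.15, limma adjusted p = 0.000971). It rose where Me1 and Me3 fell.

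The kinases that switch off pyruvate dehydrogenase moved in opposite directions. Pdk1 had 115, 96.0 and 112 scaled RPKM in OSKM-CMs, against 45.2 and 46.9 in Control-CMs (log2 fold change 1.21, SE 0.12, limma adjusted p = 0.000571). Pdk2 had 35.7, 42.9 and 30.02 in OSKM-CMs, against 76.2 and 84.8 in Control-CMs (log2 fold change -1.14, SE 0.16, limma adjusted p = 0.00215). The order of these kinases was thus opposite in the 2 groups, in every library. Pdk3 rose as well, on 6 to 19 reads a library (log2 fold change 0.86, limma adjusted p = 0.0134). Pdk4, the fasting-responsive form, had 39.1, 63.8 and 47.7 in OSKM-CMs, against 37.6 and 113 in Control-CMs, and the wide gap between the controls came with no change past the threshold (log2 fold change -0.40, 95% interval -1.65 to 0.85, limma adjusted p = 0.577). Among the carriers of the malate-aspartate shuttle, Slc25a11, Slc25a12 and Slc25a13 fell, with log2 fold changes of -1.11, -0.71 and -1.03 (limma adjusted p 0.000919 to 0.00421). Pdk2 to Pdk4 and these carriers were named after their values were seen.

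**Figure D5:**
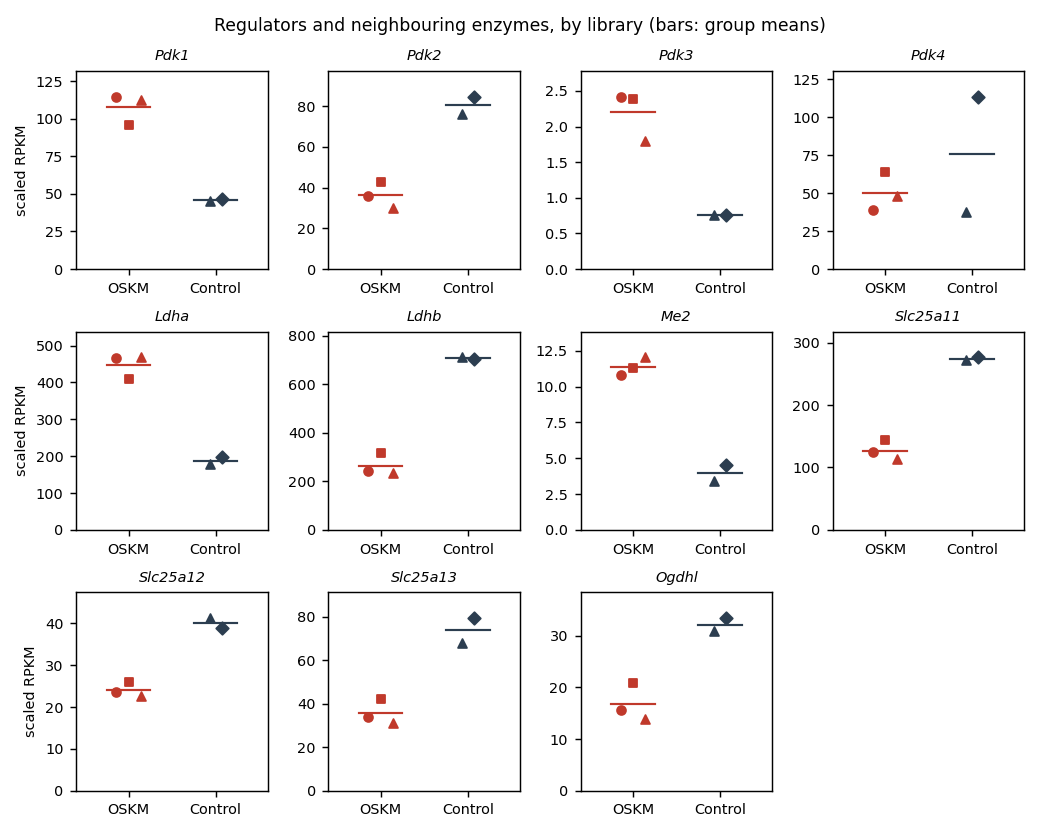
Scaled RPKM of genes that neighbour the cycle, 1 point a library (symbols as in the plot of ratios), with bars at group means and axes from 0. Pdk1, Pdk3, Ldha and Me2 lie higher in OSKM-CMs, Pdk4 overlaps, and the other genes shown lie lower.

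Set beside lists of the same organelle, the 33 genes had the smaller median change. Of 36 nuclear genes of complex I, 33 fell and 0 rose, with a median log2 fold change of -0.84. Of 27 tested fatty acid oxidation genes, 22 fell and 1 rose, with a median of -1.14. By the same rule 14.3% of all tested genes fell and 15.9% rose. Cardiomyocyte markers had a median of -0.94. No test was made of the difference between these lists.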

How the data were processed

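Bulk RNA was sequenced from 3 OSKM-CMs and 2 Control-CMs libraries. Per the submitters' processing notes, STAR 2.5.3, HTSeq, Trimmomatic, CASAVA 1.8.2 and FastQC were used with build mm9; annotation and strand setting are not given in the sources used here, so reads of pseudogenes, paralogues or antisense genes cannot be told apart from those of a gene. The deposited library values were RPKM by the authors, a unit inferred from the values. The authors' deposited table also held a log2 fold change, an average log2 CPM, a likelihood-ratio score, and a p-value with its FDR. All 12446 genes gave whole reads within 0.0001, and these reads gave the totals and TMM factors (trimmed fractions 0.3 of ratios and 0.05 of abundances).

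RPKM were divided by TMM factors, genes kept at a mean RPKM of 1 or more, and log2(RPKM + 1) fitted with limma 3.58.1 (R 4.3.3; abundance trend, robust, 2-sided, Benjamini-Hochberg at 0.05). Recovery and fit were tested on simulated data. All 33 members were named, and of the other pathway genes the 4 with the largest called changes and the 2 most abundant, of which 1 is not reported here. The members and lists were chosen with earlier results of these data known, and the pathway, cell marker and organelle lists carry no test of their own. The 14 alternatives changed the log offset, the minimum, the scaling, the test or the libraries. Replicate numbers name libraries only.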

Additional observations from a re-analysis of the deposited data

How the results depend on the processing

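No paired analysis was possible because the labels do not pair libraries between the groups. The count of members lower in OSKM-CMs was 10 with library totals alone and 17 with totals without mitochondrially encoded genes, the count higher was 3 and 2, and the median log2 fold change was -0.18 and -0.39. Dlat and Aco1 had values above 0 with TMM and with both of these scalings. With library totals alone the values of Pdha1 (0.21), Pdp1 (0.0087), Idh3a (0.35), Idh2 (0.090), Sdhd (0.062) and Got1 (0.30) turned from below to above 0. With totals without mitochondrially encoded genes those of Idh3a (0.13) and Got1 (0.086) did. Leaving out 1 library gave 16 to 25 members lower and 0 higher. In the other 7 alternatives 21 to 28 members were lower and 0 higher, the fewest without abundance trend and robust fit. The number of all genes called ranged from 2209 to 4635, against 3298. Depth limits Pdp2, with as few as 25 reads in a library.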
